A study of Mus musculus with 6 samples.

Results

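The Klr genes described here encode lectin-like receptors that are best known from natural killer (NK) cells and that some CD8+ T cells also carry. They are 10 genes of the 16281 in the deposited table: Klrd1, Klrc1, Klrc2, Klrc3, Klrk1, Klre1, Klri1, Klri2, Klrb1c and Klrg1. The genes were selected on their symbols and on their difference between GSK-treated and vehicle-treated cells, so that difference is given below as a description. Where these 10 genes are counted past a threshold or given an interval, this describes their values and is not a test of them. All 10 have a row in the table, and 8 passed the filter on low counts (Klri1 and Klrg1 did not).

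The receptors work mainly in pairs. CD94, the product of Klrd1, joins an NKG2 chain, and both the inhibitory chain NKG2A (Klrc1) and the activating chains NKG2C (Klrc2) and NKG2E (Klrc3) reach the cell surface with it and recognise Qa-1, a non-classical MHC molecule encoded by H2-T23. NKG2D (Klrk1) is a homodimer that signals through the adaptors DAP10 (Hcst) and DAP12 (Tyrobp) and binds stress-induced ligands of the Raet1, H60 and Ulbp1 families. KLRE1 (Klre1) pairs with KLRI1 (Klri1), which carries inhibitory motifs, or with KLRI2 (Klri2), which activates. NK1.1 is encoded by Klrb1c, and KLRG1 (Klrg1) is an inhibitory receptor for cadherins. In CD8+ T cells, NKG2A and NKG2D are known to appear after activation, and KLRG1 marks terminally differentiated effector cells.

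RNA was sequenced from CD8+ T cells of the spleens of OT1 mice (strain C57BL/6, genotype Tg(TcraTcrb)1100Mjb), whose transgenic T-cell receptor recognises an ovalbumin peptide. All cells were stimulated with anti-CD3 and anti-CD28 in the presence of IL-2 for 48 h and then expanded in IL-2 for 3 days. One group of 3 samples received 0.5 μM GSK2879552 (GSK), an irreversible inhibitor of the histone demethylase LSD1, through both phases, and the other group of 3 received vehicle (Veh). The study names 3 separate mice, and the text used here does not say whether cultures with the same number came from 1 mouse. The total counts per sample were 18288447 to 18918811 in Veh and 19149909 to 19846720 in GSK. The values below are read counts normalized to library size and composition (CPM), with the SD over 3 samples, and fold changes and their standard errors (SE) come from a model fitted with edgeR across the 11698 genes that passed the filter. In these bulk samples, a change in the share of cells that carry a transcript and a change in the RNA per cell cannot be told apart. An exact permutation test of 1 gene with 3 samples against 3 cannot give a p under 0.1, so the genes set beside the 10 receptors were tested in the edgeR model alone. Its p-values (adjusted by Benjamini-Hochberg over all genes) set the group difference against the spread between these samples. That spread is estimated with information shared across genes.

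The CD94 chain was the most abundant of the 10 transcripts and its group means differed by less than their error. Klrd1 (Entrez 16643, chr6:129588092-129598775 of GRCm38.p6, plus strand) had 204, 188 and 216 CPM in the 3 Veh samples and 193, 223 and 192 CPM in the 3 GSK samples. The groups overlapped, and their means were 203 ± 13.8 and 203 ± 17.6 CPM (SD, n = 3 each), a log2 fold change of 0.0011 with an SE of 0.066.

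The inhibitory partner of CD94 was far higher in the GSK samples. Klrc1 (Entrez 16641, chr6:129666015-129682852, minus strand) had 33.9, 32.7 and 31.8 CPM in Veh and 87.5, 90.5 and 96.5 CPM in GSK. The lowest GSK sample thus lay well above the highest Veh sample, and the spread within each group was small. The means were 32.8 ± 1.08 and 91.5 ± 4.57 CPM (SD, n = 3 each), a log2 fold change of 1.48 (SE 0.059), or 2.79-fold.

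Both genes for activating NKG2 chains were also higher in every GSK sample, from lower levels. Klrc2 (Entrez 16642, chr6:129649602-129660737, minus strand) had 3.75, 3.16 and 4.78 CPM in Veh and 7.82, 9.16 and 8.19 CPM in GSK. Its log2 fold change was 1.10 (SE 0.17), or 2.15-fold, between means of 3.90 ± 0.819 and 8.39 ± 0.692 CPM (SD, n = 3 each). Klrc3 (Entrez 58179, chr6:129636263-129643511, minus strand) was more abundant than Klrc2 in each sample. It had 8.38, 8.37 and 8.93 CPM in Veh and 16.4, 17.2 and 16.2 CPM in GSK. The Klrc3 means of 8.56 ± 0.324 and 16.6 ± 0.522 CPM (SD, n = 3 each) differed by a log2 fold change of 0.95 (SE 0.098), or 1.93-fold.

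**Figure D1:**
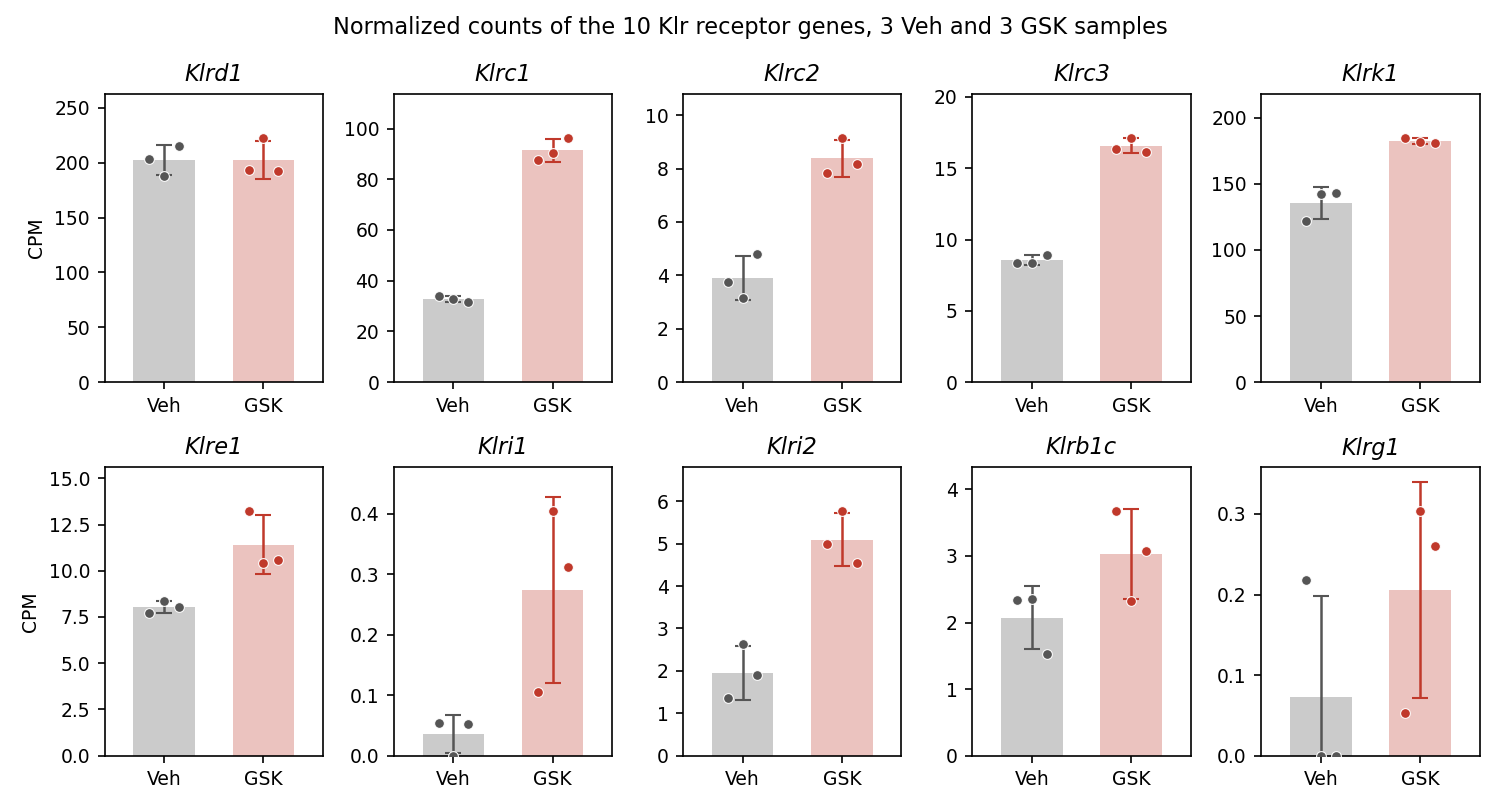
Normalized counts (CPM, y axis from 0, a scale of its own in each panel) of the 10 Klr receptor genes in 3 Veh (grey) and 3 GSK (red) samples. Points are samples, bars are group means and error bars are SD. Klrc1, Klrc2, Klrc3, Klrk1, Klre1, Klri1 and Klri2 have all GSK points above all Veh points, whereas Klrd1, Klrb1c and Klrg1 overlap.

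The 3 Klrc genes lie side by side and are close copies, so their counts are not fully independent. Over the coding sequence of 1 GENCODE M21 transcript each, Klrc2 and Klrc3 were identical at 88.9% of aligned positions, Klrc1 and Klrc2 at 81.4%, and Klrc1 and Klrc3 at 78.6%. The next closest pair among the 10 genes was Klri1 and Klri2, with 77.9%. The other pairs lay between 47.5% and 56.2%. Windows of 150 bases, the length of 1 read, that also occur in another gene made up 4.32% of those in the Klrc1 transcripts (shared with Klrc2), 2.48% in Klrc2 (with Klrc1 and Klrc3) and 7.34% in Klrc3 (with Klrc2). Windows of 31 bases were shared far more often, at 53.1% for Klrc1, 21.6% for Klrc2 and 53.4% for Klrc3, so a read with a mismatch could be placed on a neighbour. The longest exact coding matches show where the coding sequences are the same, and only the first of them is longer than 1 read. The first runs over 203 bases of Klrc2 and Klrc3 (coding bases 71 to 273 of Klrc2, on exons between chr6:129659378-129660486, minus strand), and the other over 100 bases of Klrc1 and Klrc2 at the end of the coding sequence (coding bases 633 to 732 of Klrc1, chr6:129674862-129674961, minus strand). They were read from GRCm38.p6 with GENCODE exons and are printed 5′ to 3′ without capitals, since every base is shared.
Klrc2 and Klrc3 coding: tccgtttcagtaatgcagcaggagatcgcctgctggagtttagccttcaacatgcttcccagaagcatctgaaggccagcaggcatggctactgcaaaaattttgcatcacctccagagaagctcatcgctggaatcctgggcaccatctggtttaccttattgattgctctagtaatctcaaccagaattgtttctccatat
Klrc1 and Klrc2 coding: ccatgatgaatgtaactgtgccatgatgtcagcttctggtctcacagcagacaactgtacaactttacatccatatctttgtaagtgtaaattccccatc

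Adding the 3 Klrc genes to 1 feature removes the question of which copy a read belongs to. The summed Klrc counts came to 46.1, 44.2 and 45.5 CPM in Veh and to 112, 117 and 121 CPM in GSK. The groups did not overlap, with means of 45.3 ± 0.959 and 116 ± 4.58 CPM (SD, n = 3 each), a log2 fold change of 1.36 (SE 0.052), or 2.57-fold. The sum does not tell which copy contributed to it. Within the sum, Klrc1 took 73.7%, 73.9% and 69.9% of the counts in Veh and 78.3%, 77.5% and 79.8% in GSK. The shares of Klrc3 moved the other way, from 18.9% ± 0.724 to 14.2% ± 0.748 (SD, n = 3 each), without overlap. For Klrc2 the shares were 8.60% ± 1.72 and 7.21% ± 0.559 (SD, n = 3 each), and the groups overlapped.

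The balance of the transcripts for the CD94/NKG2A pair differed between the groups. With Klrd1 almost equal in both groups, this restates the difference of Klrc1, on which the genes were chosen. The log2 of the GSK over Veh ratio was 1.48, as for Klrc1 alone, and is given as a description. Per kb of exon, the Klrc1 level was 0.107, 0.112 and 0.0952 of the Klrd1 level in the Veh samples and 0.293, 0.262 and 0.324 in the GSK samples. Klrd1 transcripts thus exceeded Klrc1 transcripts in every sample, by a mean of 9.58 times ± 0.828 in Veh and 3.44 times ± 0.366 in GSK (SD, n = 3 each). For the 3 Klrc genes together, each scaled to its own length, the mean ratio to Klrd1 was 0.183 ± 0.0105 in Veh and 0.445 ± 0.0377 in GSK (SD, n = 3 each). Klrd1 remained the more abundant partner on this scale also.

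**Figure D2:**
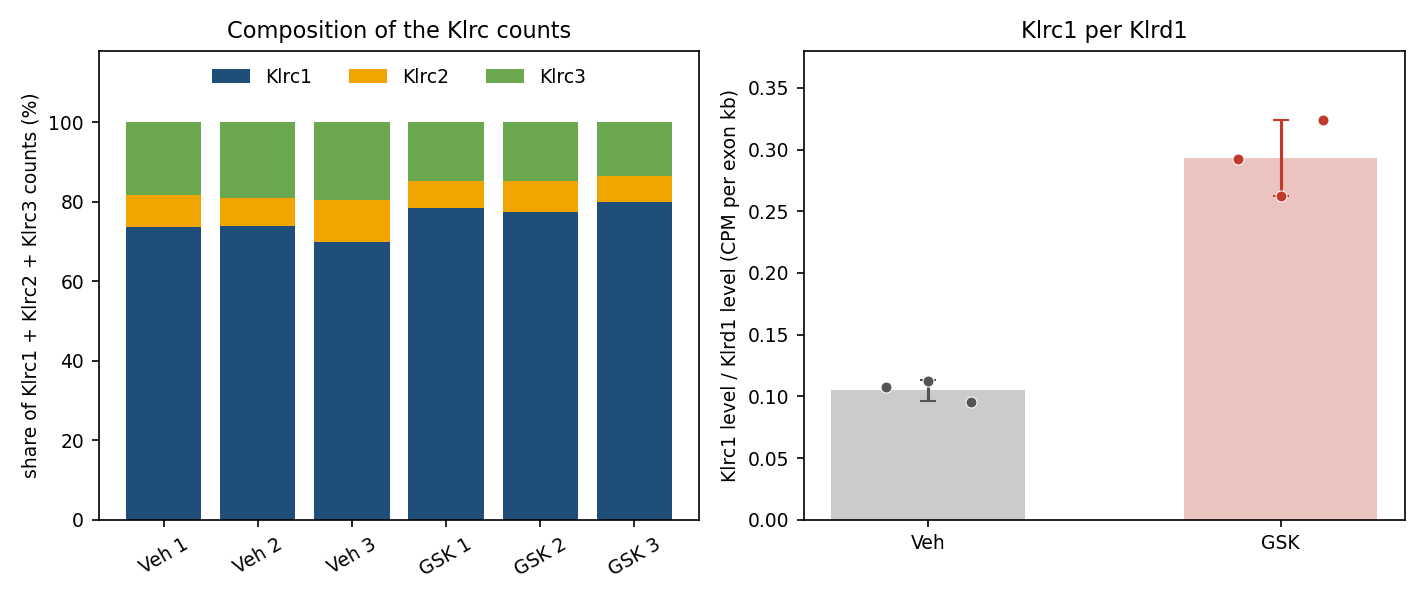
Left, the share of the summed Klrc counts (%) taken by Klrc1, Klrc2 and Klrc3 in each of the 6 samples. Right, the ratio of the Klrc1 level to the Klrd1 level (both in CPM per kb of exon), with points for samples, bars for group means and error bars for SD. The ratio lies between 0.0952 and 0.112 in Veh and between 0.262 and 0.324 in GSK, which restates the Klrc1 difference that chose the genes.

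The promoter windows of Klrc2 and Klrc3 are near copies as well, while the window available for Klrc1 is not. RefSeq promoter windows of GRCm38.p6 (250 bases before to 50 bases after a transcript start) were available for 7 of the 10 genes, Klrc1, Klrc2, Klrc3, Klrk1, Klre1, Klri1 and Klrb1c. Klrd1, Klri2 and Klrg1 had no entry. The Klrc2 window (chr6:129660507-129660806, minus strand) and the Klrc3 window (chr6:129643239-129643538, minus strand) were identical at 296 of 301 aligned columns, or 98.3%, with 3 substitutions and 2 gap columns. Klrc1 reached 51.9% against Klrc2 and 52.8% against Klrc3. The Klrc1 window (chr6:129678924-129679223) lies inside the gene, which on the minus strand begins at chr6:129682852. The region before that outer start of Klrc1 was not compared. Both near-copies are printed to show how little separates the start regions of these 2 genes, with the bases that differ in capitals.
Klrc2: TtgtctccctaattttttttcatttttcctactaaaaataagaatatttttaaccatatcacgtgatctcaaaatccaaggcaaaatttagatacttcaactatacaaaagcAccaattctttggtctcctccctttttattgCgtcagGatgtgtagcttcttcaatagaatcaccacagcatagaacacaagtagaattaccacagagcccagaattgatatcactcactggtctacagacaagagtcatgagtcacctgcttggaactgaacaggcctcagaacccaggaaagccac
Klrc3: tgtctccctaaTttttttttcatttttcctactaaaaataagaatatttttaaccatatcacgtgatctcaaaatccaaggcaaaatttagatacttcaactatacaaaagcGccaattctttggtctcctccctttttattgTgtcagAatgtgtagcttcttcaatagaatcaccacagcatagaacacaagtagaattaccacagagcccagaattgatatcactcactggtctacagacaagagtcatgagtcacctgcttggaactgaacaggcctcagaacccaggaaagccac

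The windows were also searched, on both strands, for 4 short motifs of transcription factor families that act in NK and CD8+ T cells. The RUNX motif TGTGGT occurred in at least 1 window of 6 of the 7 genes, Klrc1, Klrc2, Klrc3, Klrk1, Klre1 and Klrb1c, and not in that of Klri1. Over all 32851 RefSeq promoter windows of the same length, 16.8% held it, and 18.9% of 27025 genes had it in at least 1 window. Klrc2 and Klrc3 each held it 2 times in the windows printed above, starting 76 and 49 bases before the transcript start on the opposite strand, and as near-copies they do not count as separate cases. In Klre1 it was in 1 of 2 windows. The windows of Klrc1, Klre1 and Klri1 lie wholly inside their genes, so the regions before their outer starts were not searched. Those of Klrc2 and Klrc3 lie partly inside their genes, whose outer starts are at chr6:129660737 and chr6:129643511. Only short parts of the regions before these 2 starts were thus searched or compared. The T-box motif GGTGTGA (3.98% of all windows), the GFI1 motif AAATCAC (3.20%) and the STAT motif TTCNNNGAA (8.30%) had no match in the windows of the 7 genes. A match of so few letters is a description of the sequence and not a binding site. Windows of Klrc1 (chr6:129678924-129679223, minus strand), Klrk1 (chr6:129623815-129624114, minus strand) and Klre1 (chr6:129577963-129578262, plus strand) are printed to show how differently placed the match is in genes of separate receptor types, with the RUNX motif in capitals (in Klrc1 it lies on the opposite strand).
Klrc1: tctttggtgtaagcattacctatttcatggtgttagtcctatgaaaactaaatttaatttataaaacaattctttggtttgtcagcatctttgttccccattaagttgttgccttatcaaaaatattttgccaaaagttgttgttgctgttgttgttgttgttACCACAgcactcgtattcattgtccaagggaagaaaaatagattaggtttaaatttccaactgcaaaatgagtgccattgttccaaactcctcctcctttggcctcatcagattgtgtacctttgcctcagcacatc
Klrk1: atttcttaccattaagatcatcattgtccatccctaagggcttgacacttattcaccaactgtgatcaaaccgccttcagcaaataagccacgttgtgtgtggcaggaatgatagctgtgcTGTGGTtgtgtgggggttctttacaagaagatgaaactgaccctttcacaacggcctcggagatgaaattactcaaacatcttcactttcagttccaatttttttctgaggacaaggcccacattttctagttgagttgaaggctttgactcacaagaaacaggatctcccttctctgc
Klre1: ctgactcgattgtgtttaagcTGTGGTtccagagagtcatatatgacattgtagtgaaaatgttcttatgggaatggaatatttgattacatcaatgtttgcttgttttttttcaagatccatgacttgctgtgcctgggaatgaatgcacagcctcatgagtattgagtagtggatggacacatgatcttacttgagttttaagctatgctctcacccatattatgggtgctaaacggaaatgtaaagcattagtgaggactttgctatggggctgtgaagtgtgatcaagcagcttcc

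The transcript of the activating receptor NKG2D was higher in each GSK sample, but by less than the Klrc genes. Klrk1 (Entrez 27007, chr6:129610323-129623903, minus strand) had 122, 142 and 143 CPM in Veh and 185, 181 and 181 CPM in GSK. Its means of 136 ± 12.1 and 182 ± 2.18 CPM (SD, n = 3 each) gave a log2 fold change of 0.43 (SE 0.058), or 1.34-fold. Hcst, whose product DAP10 carries the NKG2D signal, did not pass the test (17.2 ± 2.72 and 15.2 ± 1.73 CPM, log2 fold change -0.18, adjusted p = 0.301). Per kb of exon, the ratio of Klrk1 to Hcst was 0.603, 0.905 and 0.936 in Veh and 1.41, 1.10 and 1.16 in GSK, so the groups did not overlap. This ratio carries the Klrk1 difference on which the genes were chosen. Its size depends on the length used, since the merged exons of Klrk1 span 7.183 kb and its coding sequence 0.696 kb. Whether it lies above or below 1 is therefore not read.

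The KLRE1 and KLRI chains were expressed at low levels, and their differences were unequal. Klre1 (Entrez 243655, chr6:129559365-129585828, plus strand), the shared partner, had 7.72, 8.37 and 8.04 CPM in Veh and 13.2, 10.4 and 10.6 CPM in GSK. The log2 fold change of Klre1 was 0.50 (SE 0.13), or 1.42-fold, and without GSK replicate 1, its highest sample, it fell to 0.38. Klri2 (Entrez 320407, chr6:129729041-129740484, minus strand), the activating chain, had 1.36, 2.63 and 1.89 CPM in Veh and 4.99, 5.77 and 4.54 CPM in GSK. With means of 1.96 ± 0.637 and 5.10 ± 0.624 CPM (SD, n = 3 each), Klri2 had a log2 fold change of 1.38 (SE 0.24), or 2.59-fold, close to that of Klrc1 but with a wider error. The inhibitory chain was barely detected. Klri1 (Entrez 503550, chr6:129696118-129720610, minus strand) had 1, 0 and 1 counts in the Veh samples and 2, 8 and 6 counts in the GSK samples, too few to pass the filter. Its depth-scaled ratio of GSK to Veh was 7.73, with a 95% counting interval of 1.82 to 69.3 that does not include the spread between samples. No window of 150 bases in Klri1 or Klri2 occurs in another gene, while 15.3% and 7.62% of their windows of 31 bases do. Per kb of exon, Klre1 exceeded Klri2 by 6.36, 3.57 and 4.76 times in Veh and by 2.97, 2.02 and 2.61 times in GSK.

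NK1.1 and KLRG1 transcripts were low in both groups. Klrb1c (Entrez 17059, chr6:128778485-128788641, minus strand) had 2.34, 2.36 and 1.52 CPM in Veh and 3.67, 2.33 and 3.08 CPM in GSK. The groups overlapped, with means of 2.07 ± 0.477 and 3.03 ± 0.675 CPM (SD, n = 3 each) and a log2 fold change of 0.54 (SE 0.26). Of the Klrb1c windows of 150 bases, 8.73% also occur in Gm44511, a predicted gene that overlaps it in the GENCODE annotation, so part of its count is uncertain. Klrg1 (Entrez 50928, chr6:122270596-122282833, minus strand) is the only one of the 10 outside the cluster. It had 4, 0 and 0 counts in Veh and 1, 6 and 5 counts in GSK, a ratio of 2.90 with a counting interval of 0.879 to 12.3 that includes 1. At this depth no difference in Klrg1 was detectable.

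Counted over the 8 genes that passed the filter, 4 were called higher in GSK (Klrc1, Klrc2, Klrc3 and Klri2), that is, with an adjusted p below 0.05 and more than 1.5-fold apart, and so were 2.22% of all genes tested. None was lower by edgeR at either p, adjusted or not, or by DESeq2 at the adjusted p. Of all genes tested, 4.09% were called lower. At the adjusted p alone 6 were higher, with Klrk1 and Klre1 added, against 16.6% of all genes higher and 15.5% lower. The 3 GSK samples lay above the 3 Veh samples in 6 of the 8, and in 23.7% of all genes tested. Their median log2 fold change was 0.75, and that of all genes tested was -0.0039. Nothing is read from these counts, since the same contrast was used to choose the genes. Of the 4 called, Klrc3 had the smallest fold, 1.93, which is well above the threshold of 1.5. Just outside the threshold stood Klrb1c with 1.46-fold and Klre1 with 1.42-fold.

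The genes were chosen on the difference between the groups and not on their level in either group. Any change of order from Veh to GSK carries that difference, so it is given as a description. Per kb of exon in Veh, Klrd1 led with 158 ± 10.8 CPM per kb (SD, n = 3). Klrk1 (18.9 ± 1.68) and Klrc1 (16.5 ± 0.544) came next and overlapped, followed by Klrc3 (11.6 ± 0.440) and Klre1 (2.30 ± 0.0922). Klrb1c (0.701 ± 0.161), Klrc2 (0.671 ± 0.141) and Klri2 (0.501 ± 0.163) could not be ordered among themselves on this scale, and Klrg1 and Klri1 were last. Of the 9 pairs of neighbours in this order, 5 did not overlap in Veh. In GSK, Klrc1 (46.1 ± 2.30) stood above Klrk1 (25.4 ± 0.304) without overlap, and 6 of the 9 pairs of neighbours were separate. This exchange of places between Klrc1 and Klrk1 depends on the length used. The merged exons of Klrk1 span 7.183 kb and its coding sequence 0.696 kb, and per kb of coding sequence Klrk1 stayed above Klrc1 both in Veh (195 against 44.8 CPM per kb) and in GSK (262 against 125 CPM per kb). The place of Klrc2 in Veh also depends on the length. Per kb of coding sequence, Klrc2 (5.46 ± 1.15) lay above Klri2 (2.63 ± 0.856) and Klrb1c (2.55 ± 0.586) without overlap. Klrd1 was first on both scales in both groups.

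**Figure D3:**
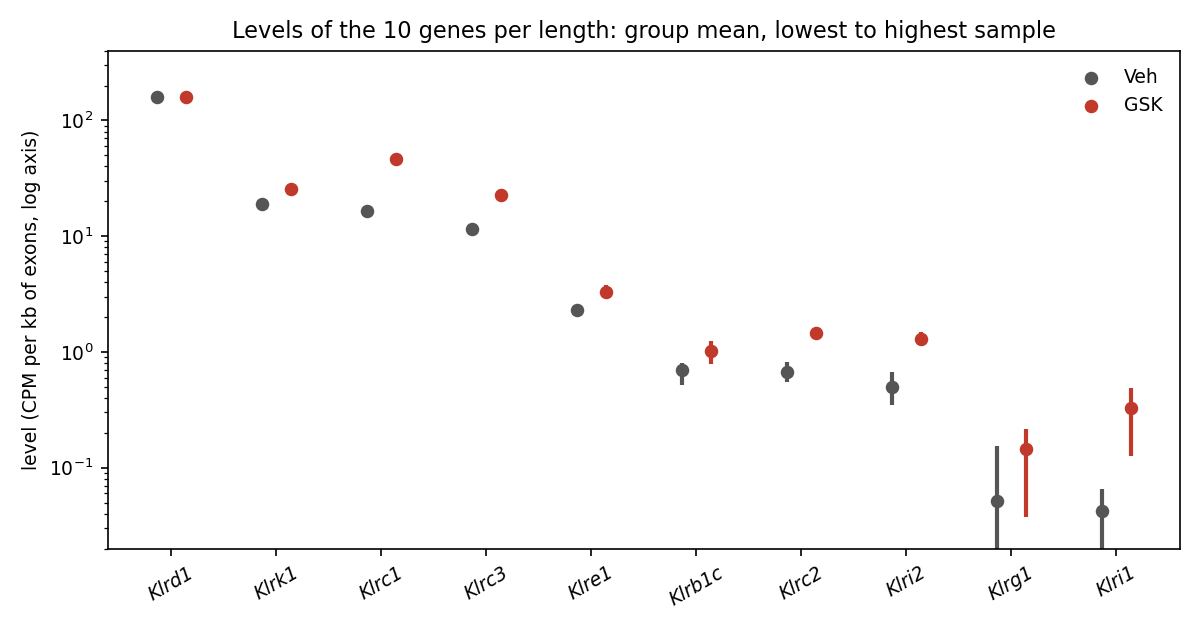
Levels of the 10 genes in CPM per kb of exon (log axis) in Veh (grey) and GSK (red), ordered by their Veh level. Points are means of 3 samples and lines run from the lowest to the highest sample, with samples at 0 drawn at the foot of the axis; the levels span from 158 for Klrd1 to under 1 for Klrg1 and Klri1.

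Of the 10 genes, 9 lie in the NK gene complex of chromosome 6, over 962 kb from Klrb1c to Klri2 (chr6:128778485-129740484). With 500 kb added on either side, 46 genes of the table overlap this window, 9 of them the receptors and 37 neighbours, of which 16 were tested. Among these 16 neighbours, 2 rose past both thresholds and none fell past them by edgeR or DESeq2 (3 were lower at an unadjusted p under 0.05). At the adjusted p alone 4 rose and 2 fell, and the median log2 fold change of the 16 was 0.13. Those that rose past both were Tulp3, a tubby-like protein (15.6 ± 0.372 to 24.03 ± 0.721 CPM, log2 fold change 0.63, adjusted p = 9.19e-05), and BC035044 (19.9 ± 2.27 to 33.2 ± 4.23 CPM, log2 fold change 0.74, adjusted p = 0.000312), whose position overlaps that of Clec2i, so its counts are uncertain. Clec2i itself fell (62.9 ± 4.63 to 43.5 ± 3.24 CPM, log2 fold change -0.53, adjusted p = 0.000165). The early activation antigen Cd69 rose by a log2 fold change of 0.50 (adjusted p = 8.55e-05).

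At the ends of the run, Klrb1 had 0 to 10 counts per sample and Klrh1 0 to 1, so neither was tested. Gabarapl1, an autophagy gene that lies inside the run beside Klre1, had 54.1 ± 1.26 CPM in Veh and 56.8 ± 2.1 in GSK and did not pass the test (log2 fold change 0.07, adjusted p = 0.347). The 4 receptor genes past both thresholds, Klrc3, Klrc2, Klrc1 and Klri2, lie within 92.8 kb of one another by their start coordinates, with Klri1 among them. Klrd1, whose start coordinate is 78 kb from that of Klrc1, showed no such difference, and Klrk1 lies between Klrd1 and Klrc3. Start coordinates here are the lower ones on the chromosome, which for genes on the minus strand, such as Klrc1, mark the end of the gene.

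**Figure D4:**
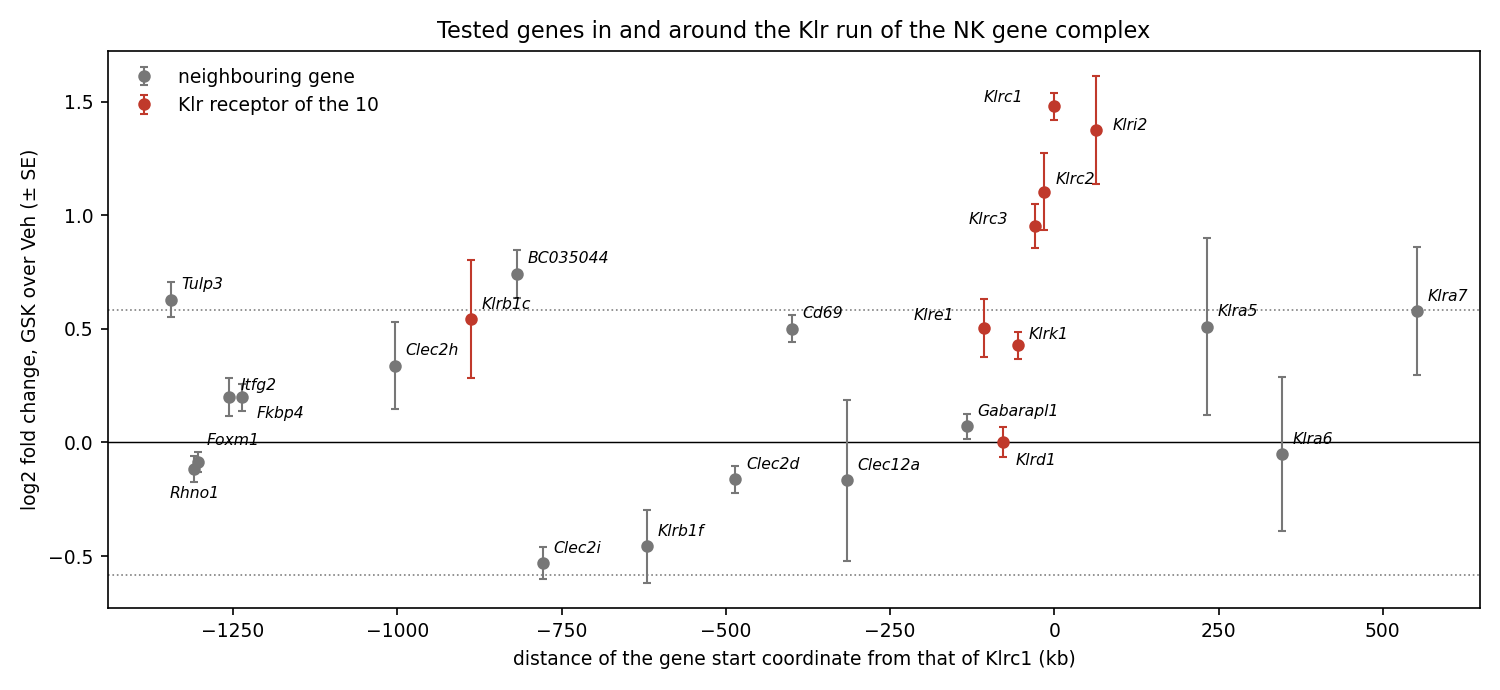
Log2 fold change (GSK over Veh, ± SE) of the tested genes by the distance of their start coordinate from that of Klrc1 (kb). Receptors are red and neighbours grey, dotted lines mark a fold of 1.5, and the 4 highest points, between 0.95 and 1.48, are Klrc3, Klrc2, Klri2 and Klrc1.

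The rest of the Klr family was lower and less often testable. The table holds 17 other Klr genes, mostly Ly49 receptors (Klra) and further Klrb1 genes, and 6 passed the filter. None of the 6 was called in either direction by edgeR or DESeq2, and at an unadjusted p under 0.05 only Klrb1f was past the threshold. Klrb1f fell from 5.62 ± 0.345 to 4.09 ± 0.292 CPM (log2 fold change -0.46, adjusted p = 0.0422), a call that each left-out sample ended (adjusted p from 0.0601 to 0.123) and that DESeq2 did not make. The Ly49 receptor gene Klra7 had a log2 fold change of 0.58 without passing the test (1.76 to 2.63 CPM, adjusted p = 0.135). The summed level of the 17 was 12.02 to 13.4 CPM in Veh and 12.4 to 13.6 CPM in GSK, where that of the 10 receptors was 383 to 416 CPM and 512 to 540 CPM.

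The signalling chain below the receptors was listed as 24 genes, of which 23 were tested. Tyrobp, the adaptor DAP12 through which NKG2C and NKG2E signal, was called higher, and none was called lower by edgeR or DESeq2, with 3 lower at an unadjusted p under 0.05. Tyrobp had 5, 11 and 2 counts in Veh and 17, 21 and 13 counts in GSK, so all GSK samples lay above all Veh samples (0.322 ± 0.246 and 0.878 ± 0.193 CPM, log2 fold change 1.43, SE 0.51, adjusted p = 0.0472). Its call was lost without Veh replicate 1, Veh replicate 3 or any 1 of the GSK samples (adjusted p over the 6 left-out samples from 0.0176 to 0.159) and with DESeq2 (adjusted p = 0.108). Fcer1g did not pass the test (2.74 ± 1.07 and 2.52 ± 0.344 CPM, adjusted p = 0.784). At the adjusted p alone 7 of the 23 rose, among them the kinases Fyn (log2 fold change 0.33, adjusted p = 0.000754) and Lck (0.13, adjusted p = 0.0105) and the scaffold Lat (0.23, adjusted p = 0.0034). At the same threshold 2 of the 23 fell, the lipid kinase subunit Pik3r1 (-0.48, adjusted p = 4.5e-05) and the phospholipase Plcg1 (-0.26, adjusted p = 0.00321). The median log2 fold change of the 23 was 0.07.

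Ligands of the receptors were measured in the same cells. Of 22 listed, 16 were in the table and 9 were tested. H2-T23, which encodes the Qa-1 ligand of CD94/NKG2, had 240, 243 and 212 CPM in Veh and 201, 213 and 174 CPM in GSK. The groups of H2-T23 overlapped, and the log2 fold change of -0.24 passed the adjusted p alone (0.0389). It did not pass without Veh replicate 1, Veh replicate 2, GSK replicate 1 or GSK replicate 3 (adjusted p over the 6 left-out samples from 0.0147 to 0.123), nor with no filter on low counts. It passed with DESeq2 (adjusted p = 0.00501) and in edgeR with a replicate block, a term for the replicate number (adjusted p = 0.00472). The position of H2-T23 overlaps that of A930015D03Rik. The NKG2D ligand gene Ulbp1 rose from 62.7 ± 3.46 to 80.4 ± 2.84 CPM (log2 fold change 0.36, adjusted p = 0.000493), while H60b, Raet1d and Raet1e were too low to test. The KLRG1 ligand gene Cdh1, E-cadherin, was the only one past both thresholds and fell from 6.66 ± 0.419 to 4.01 ± 0.578 CPM (log2 fold change -0.73, adjusted p = 0.00458). No ligand gene was called higher by edgeR or DESeq2, and 1, Ulbp1, was higher at an unadjusted p under 0.05.

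Other NK-type receptors and cytotoxic genes did not follow one direction. Of 20 tested among 23 in the table, 2 rose past both thresholds and 2 fell, and at the adjusted p alone 5 rose and 3 fell. Perforin (Prf1) rose from 42.3 ± 2.38 to 90.4 ± 6.84 CPM (log2 fold change 1.09, adjusted p = 3.92e-07), and granzyme B (Gzmb) by a log2 fold change of 0.62 (adjusted p = 0.0193). The call of Gzmb was lost without Veh replicate 1, Veh replicate 3 or GSK replicate 1 (adjusted p up to 0.0675), and without GSK replicate 3 its log2 fold change of 0.51 was below 1.5-fold. Granzyme K (Gzmk) fell from 14.8 ± 1.77 to 8.22 ± 0.682 CPM (log2 fold change -0.85, adjusted p = 0.000275). Fcgr3, a chain of the Fc receptor CD16, was at 1.08 ± 0.381 and 0.466 ± 0.107 CPM (log2 fold change -1.21, adjusted p = 0.0359), a call lost with DESeq2 and without any 1 sample other than Veh replicate 2 (adjusted p over the 6 left-out samples from 0.0435 to 0.167). The median log2 fold change of the 20 was -0.04.

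Among regulators known to act on NK-type genes, 19 of 20 in the table were tested, 2 rose and 4 fell past both thresholds, and at the adjusted p alone 3 rose and 10 fell. The T-box factor Eomes rose from 204 ± 9.38 to 433 ± 17.7 CPM (log2 fold change 1.08, adjusted p = 1.49e-08; its position overlaps that of Gm33408), and Gfi1, a repressor that binds LSD1, from 45.0 ± 3.32 to 113 ± 7.45 CPM (1.33, adjusted p = 6.37e-08). The other T-box factor, Tbx21, fell (-0.64, adjusted p = 4.56e-05), as did Ikzf2 (-0.71, adjusted p = 0.000367), Tcf7 (-1.28, adjusted p = 0.0122; its position overlaps that of Skp1) and Zeb2 (-0.65, adjusted p = 0.0445; its position overlaps that of Zeb2os). Zeb2 lost its call with DESeq2 and without any 1 sample other than Veh replicate 2 (adjusted p over the 6 left-out samples from 0.048 to 0.158). The RUNX genes, whose motif was searched for above, fell at the adjusted p alone, Runx3 by 0.29 (adjusted p = 0.001) and Runx1 by 0.29 (adjusted p = 0.0269) on the log2 scale; the Runx1 call was lost with DESeq2 and without Veh replicate 1, Veh replicate 3, GSK replicate 1 or GSK replicate 3 (adjusted p up to 0.0898). Kdm1a, which encodes the inhibitor's target LSD1, did not pass the test (92.8 ± 5.45 and 87.1 ± 3.54 CPM, log2 fold change -0.09, adjusted p = 0.224). Whether any of these factors bears on the receptor genes was not tested.

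**Figure D5:**
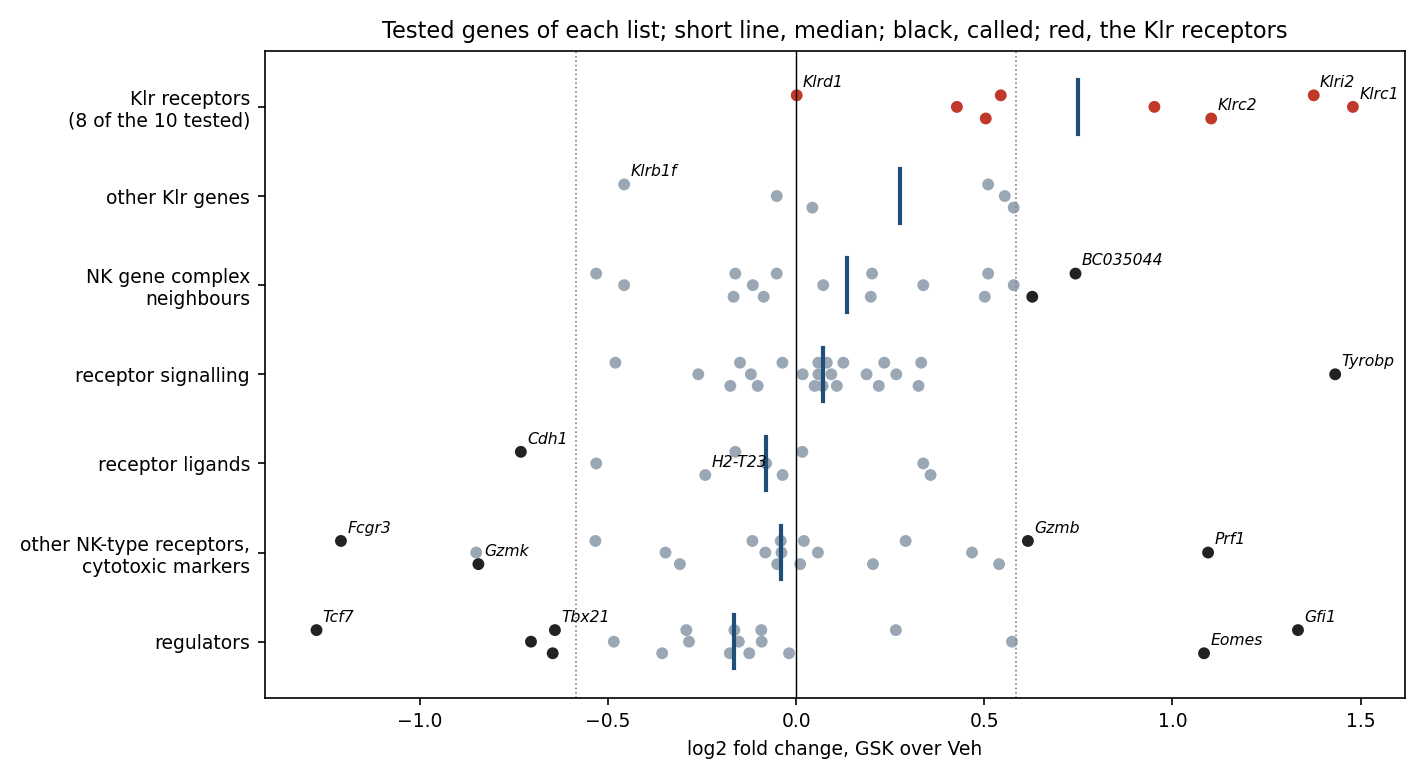
Log2 fold change (GSK over Veh, x axis) of every tested gene of the receptors and the 6 lists; short vertical lines are medians, dotted lines a fold of 1.5, red the receptors and black the list genes past both thresholds. The medians run from -0.16 for the regulators to 0.75 for the receptors, which were chosen on this contrast.

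Because these receptors are typical of NK cells, markers of NK and other cells were examined in the same samples. Of 11 NK cell markers, 4 were tested and none rose, by edgeR or DESeq2 or at an unadjusted p under 0.05, while Fcgr3 fell as given above and Itgam was lower at an unadjusted p under 0.05 (2.44 to 1.496 CPM, log2 fold change -0.70, adjusted p = 0.0731). Ncr1, the NK cell receptor NKp46, had 0 counts in the 3 Veh samples and 1, 0 and 0 counts in the GSK samples, where a count of 0 allows up to 3 counts in a sample. The Ly49 genes Klra4, Klra8 and Klra9 and the NK cell receptor S1pr5 had 0 to 2 counts per sample. The summed level of the 11 markers was 23.98 to 27.3 CPM in Veh and 22.3 to 31.8 CPM in GSK, most of it Itga2, an integrin chain that activated T cells also express (20.2 and 20.3 CPM). The gamma-delta T-cell receptor genes Trdc, Tcrg-C1, Tcrg-C2 and Tcrg-C4 were listed but have no row in the deposited table. The other markers of gamma-delta or innate-like T cells summed to 7.99 to 8.54 and 8.60 to 8.92 CPM, most of it Cd163l1 (6.64 and 6.85 CPM). Of these, 2 of 5 were tested, with none called or past an unadjusted p of 0.05 by edgeR, nor called by DESeq2. Myeloid markers summed to 3.48 to 4.18 and 2.94 to 3.02 CPM, with 2 of 5 tested and likewise none. Of the B cell markers, Cd22 rose (0.409 to 2.60 CPM, log2 fold change 2.65, adjusted p = 0.000151), and Cd79b did not pass the test (6.51 to 4.90 CPM, adjusted p = 0.0697). Cd79a, with 3, 1 and 0 counts in Veh and 5, 11 and 5 in GSK, and Ms4a1, with 0, 2 and 2 counts in Veh and 4, 6 and 8 in GSK, were too low to test, but each was higher in all GSK samples. Summed CD4 T cell markers stood at 43.9 to 53.2 and 40.7 to 45.9 CPM, most of it Zbtb7b (42.1 and 37.6 CPM). Among these markers Cd40lg rose (0.446 to 1.29 CPM, adjusted p = 0.0181), and Cd4 was at 1.19 and 0.967 CPM. The Cd40lg call was lost without Veh replicate 1, Veh replicate 3 or GSK replicate 1 (adjusted p up to 0.081). The part of the markers that moved in the receptor values was not tested. The markers of CD8+ T cells were abundant in both groups, with Cd8a at 516 and 541 CPM and Cd8b1 at 406 and 375 CPM (neither past the test). Of the 7 tested CD8 T cell markers, none was called by edgeR or DESeq2 (5 were lower and 1 higher at an unadjusted p under 0.05), but at the adjusted p alone 4 fell, the T-cell receptor chains Cd3g (log2 fold change -0.38, adjusted p = 6.04e-05), Cd3e (-0.23, adjusted p = 0.00145) and Cd3d (-0.16, adjusted p = 0.0114, and 0.0626 without Veh replicate 1) and the T cell antigen Cd5 (-0.50, adjusted p = 0.00115), and Thy1 rose (0.23, adjusted p = 0.000203).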

How the data were processed

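Poly(A) RNA of 3 Veh and 3 GSK samples was sequenced as stranded paired-end libraries with reads of 150 bases. The authors trimmed reads with Trimmomatic, mapped them to GRCm38 with HISAT2 (version 2.1.0) and counted reads per gene with HTSeq (version 0.11.2), per the submitters' processing notes, which also name Cufflinks (version 2.2.1) and DESeq2 (version 1.22.2). The deposited values are these counts, whole and not normalized. The annotation release and the strand setting of the counting are not given in the sources used here, so counts of overlapping genes are uncertain.

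The deposited counts were analysed with edgeR (version 4.0.16, with limma version 3.58.1, in R version 4.3.3). Low counts were removed by filterByExpr, libraries were scaled by TMM, and GSK was set against Veh with the quasi-likelihood test in its robust form. The p-values of the 11698 genes left were adjusted together by Benjamini-Hochberg. Calls needed an adjusted p below 0.05 with more than 1.5-fold change, and were also counted at the adjusted p alone. Standard errors were derived from the test statistic. The total counts of 18288447 to 19846720 per sample leave genes of a few counts untested, and the counting intervals given for 2 of them (95%, exact) cover counting error only. Pairs of samples within a group differed by more than sampling noise (chi-square per degree of freedom 3.95 to 9.02). The tests were checked on simulated counts.

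The 10 receptor genes, the other gene lists and the motifs were chosen with earlier results of these data known. All 10 receptors were named, and from each list the genes called, up to the 8 with the smallest p, the genes at the ends of the run, and Tyrobp, Hcst, Fcer1g, H2-T23, Ncr1 and Kdm1a. Clec2i, Cd69, Gabarapl1, Klrb1f, Klra7, Klra4, Klra8, Klra9, S1pr5, Itga2, Itgam, Fyn, Lck, Lat, Pik3r1, Plcg1, Ulbp1, H60b, Raet1d, Raet1e, Runx1, Runx3, Cd79a, Cd79b, Ms4a1, Cd163l1, Zbtb7b, Cd3d, Cd3e, Cd3g, Cd5, Thy1, Gzma, Cd226, Fasl, Cd4, Cd8a and Cd8b1 were named after their values were seen. Another marker gene is not reported here. Lengths and coding sequences came from GENCODE M21, and positions and promoter windows from RefSeq GRCm38.p6, matched by Entrez identifier or symbol. The alternatives were DESeq2 (version 1.42.0), RLE size factors, no filter and a filter of 1 CPM in 3 samples, the replicate block, the adjusted p alone, coding length, and leaving out each sample.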

Additional observations from a re-analysis of the deposited data

How the results depend on the processing

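Of 181 recomputed counts, summed Klrc fold changes and numbers of separate pairs in the orders, 154 stayed within 1.5 times or 1 SD of the value reported. No called fold change changed direction. Counts and orders were compared by number alone, so one could stay the same with other genes in it, and many counts were 0 in both fits. All 88 recomputed log2 fold changes of the 8 tested receptors stayed within 1 SD between samples. In each of the 11 other fits, Klrc1, Klrc2, Klrc3 and Klri2 alone were past both thresholds. Those fits reuse these samples and the contrast that chose the genes, so they show dependence on the processing only. The log2 fold change of Klrd1, near 0, ran from -0.074 to 0.049 over the left-out samples. Lists moved with the calls at or near the threshold. With the adjusted p alone, in place of both thresholds, 1 other Klr gene was lower, 4 neighbours were higher and 2 lower, 7 signalling genes were higher and 2 lower, 1 ligand gene was higher and 3 were lower, 5 other NK-type genes were higher and 10 regulators lower. The called signalling gene, Tyrobp, was lost with DESeq2, with no filter and with the filter of 1 CPM (0 called each). Lower calls among other NK-type genes were 1, Gzmk, with DESeq2 and with 1 CPM, without Fcgr3. Over the left-out samples, counts ranged from 0 to 1 for lower neighbours (Clec2i, past 1.5-fold without GSK replicate 1), 0 to 1 for higher signalling genes, 1 to 2 for lower ligand genes, 1 to 2 for higher and 1 to 2 for lower other NK-type genes (with Fasl or Cd226 among them in some). These fits have fewer samples; what else moved the calls was not tested. Same-numbered samples of the groups did not deviate together as a set (correlations -0.0542, -0.132 and 0.204, with only the last the highest of its samples), so the numbers were not taken as pairs, and whether they mark 1 mouse stays unknown. With a replicate block, 4 receptors were past both thresholds, the summed Klrc log2 fold change was 1.36 and 2 neighbours were higher. The block ended the calls of Fcgr3 (adjusted p = 0.0663) and Zeb2 (0.0591) and, at the adjusted p alone, of Runx1 (0.0511) and Klrb1f (0.0659), and added Gzma as lower (0.00393, from 0.154). Depth limits Klri1 and Klrg1, too low for the filter, and Tyrobp, Klri2 and Klrb1c, with few counts each.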
